A study of Mus musculus with 6 samples.

Results

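The 7 genes described here are Megf10, Megf11, Pear1, Gulp1, Abca1, Abca7 and Lrp1, the mouse genes of the MEGF10 engulfment pathway. They were picked by name from the known pathway, by a rule that uses no measured value though earlier results of these data were known, and are 7 of the 54532 genes in the deposited count table. All 7 passed the filter on low counts. Their RNA was measured by bulk RNA sequencing of primary astrocytes grown from the cortex of mouse pups, with 3 knockout and 3 control libraries. Knockout cultures were GFAP-Cre::NEOf/f: the Gfap promoter, active in astrocytes, drives Cre recombinase, which deletes floxed Neo1, the gene of the guidance receptor neogenin. Control cultures came from littermates and are labelled only as control. The names of these libraries give floxed Neo1 and no Cre. Cre driven by Gfap acts only in cells that have used that promoter, so a culture can keep cells with an intact gene. The age, sex and strain of the pups are not stated, nor is the number of animals or litters behind a library. The sample titles call the libraries of a group biological replicates. The p-values set the difference between groups against the spread between these libraries, which may be partly technical.

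Engulfment of dead cells and synapses runs through a pathway first found in the nematode worm. There the receptor CED-1, the adaptor CED-6 and the transporter CED-7 act together on a dying cell. MEGF10 and its paralogues MEGF11 and PEAR1 are the mammalian receptors that resemble CED-1 and the fly receptor Draper, GULP1 is the counterpart of CED-6, and ABCA1 and ABCA7 are relatives of CED-7. LRP1, a large endocytic receptor, also binds GULP1 and takes up ligands that mark cells for removal. In the brain, MEGF10 is known as a receptor by which astrocytes remove synapses. The study's title asks how neogenin bears on MEGF10-driven phagocytosis.

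The pathway did not move as a block. Megf10 and its paralogue Megf11 fell in the knockout cultures, while Pear1, Lrp1 and Abca1 rose, and Gulp1 and Abca7 did not pass the test. The folds ran from 0.698 for Megf10 to 1.55 for Abca1. The words rose and fell are kept for genes with an adjusted p below 0.05 (edgeR's quasi-likelihood test over 18530 genes, Benjamini-Hochberg adjustment). By that rule 3 of the 7 rose, beside 19.6% of all genes tested, and 2 of the 7 fell, beside 18.7% of all genes tested. For 5 of the 7 the groups did not overlap, beside 49.3% of all genes. With 7 genes these counts are a description only. Levels are CPM, counts scaled by TMM-adjusted library size, given as mean ± SD (n = 3), and log2 fold changes are knockout over control.

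**Figure D1:**
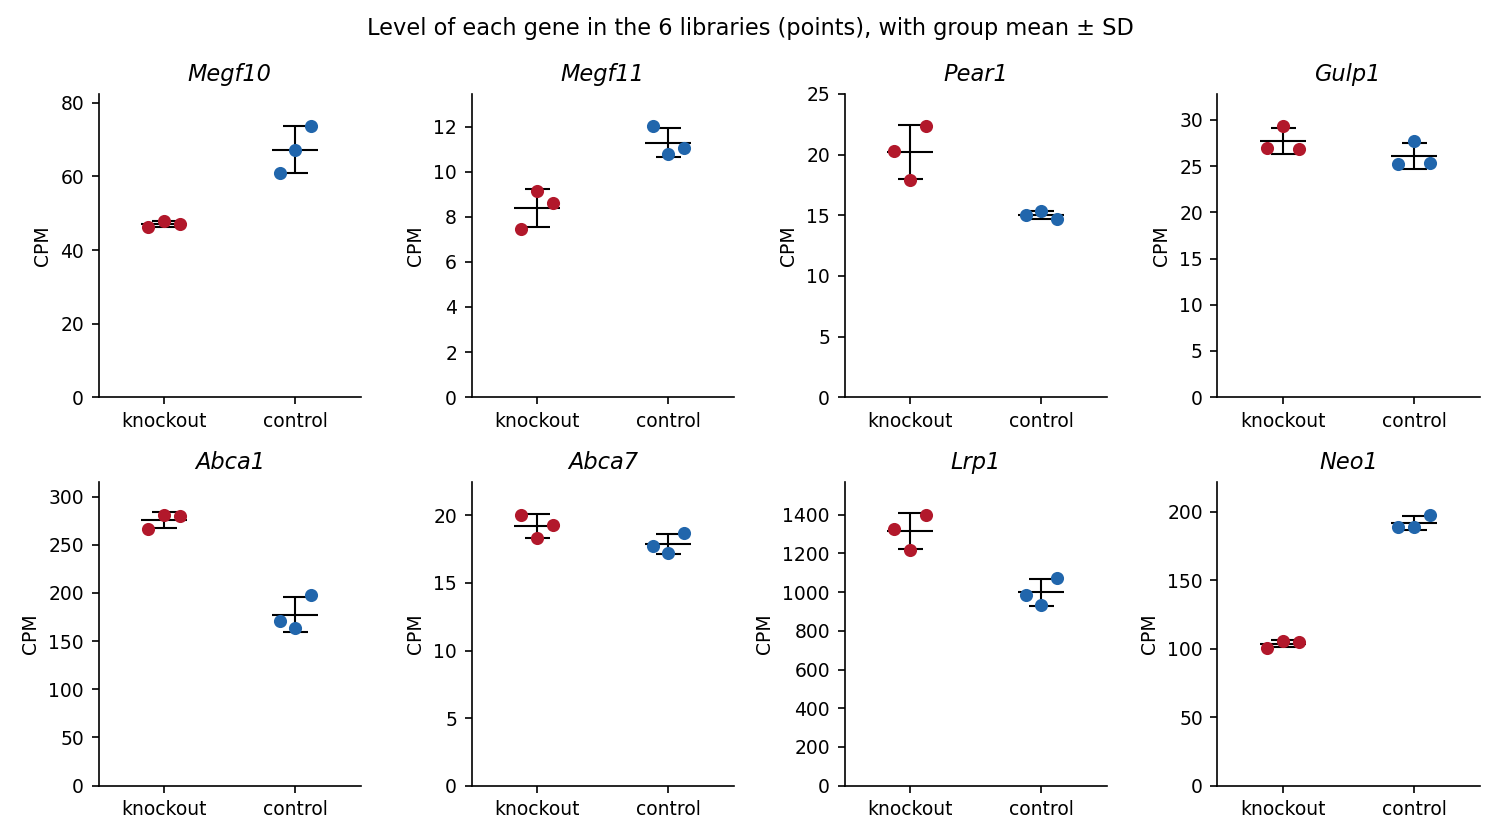
CPM (linear axes from 0) of the 7 pathway genes and of Neo1 in the 3 knockout libraries (red, left) and the 3 control libraries (blue, right), in replicate order, with bars for mean ± SD. The groups are apart for Megf10, Megf11, Pear1, Abca1, Lrp1 and Neo1 and overlap for Gulp1 and Abca7.

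Total counts ran from 74614772 to 97453331 in the knockout libraries and from 60819277 to 106081115 in the control libraries. The targeted gene Neo1 was at 104 ± 2.69 CPM in knockout and 192 ± 5.20 CPM in control cultures, a fold of 0.540, so its RNA was reduced but not lost. The count covers every exon, and which of them is deleted is not stated. On the first and second principal components (49.3% and 19.6% of variance) knockout replicate 2 lay away from the rest of its group. On the first it was at −67.0, against −30.0 and −30.5 for knockout replicates 1 and 3. Each result on the 7 genes kept its call without knockout replicate 2. Scaling by total counts in place of TMM changed the numbers of genes called higher and lower to 2921 and 4499, against 3627 and 3466, and moved the median log2 fold change of all genes to −0.07. Astrocyte markers were present, though markers of other cell types were abundant too. The 10 astrocyte markers summed to between 2472 and 2606 CPM in knockout and between 2691 and 2761 CPM in control libraries. Of these 10, 5 fell and 2 rose, beside 18.7% and 19.6% of all genes tested. The same shares of all genes stand beside the marker counts below. Slc1a2 rose to 371 ± 16.6 CPM in knockout cultures, against 133 ± 8.41 CPM in control cultures. Aqp4 rose to 879 ± 31.2 CPM in knockout cultures, against 605 ± 35.5 CPM in control cultures. Gfap was at 431 ± 3.85 CPM in knockout and 946 ± 20.8 CPM in control cultures, and Gjb6, an astrocyte connexin, at 1.10 ± 0.419 CPM in knockout and 0.924 ± 0.120 CPM in control cultures. Single marker genes, here and beside the results below, are named after their values were seen. The 10 microglia and macrophage markers were at 68.0 to 73.3 CPM in knockout and 86.6 to 92.2 CPM in control libraries (7 fell, or 4 without control replicate 3, and 1 rose). The fibroblast and meningeal markers were at 4648 to 5269 CPM in knockout and 3007 to 3195 CPM in control libraries (5 of 6 tested rose). Endothelial markers were at 140 to 142 CPM in knockout and 84.3 to 89.8 CPM in control libraries (3 of 7 tested rose), and mural cell markers at 2797 to 2848 CPM in knockout and 3835 to 4023 CPM in control libraries (1 of 5 tested rose and 2 fell). Neuron markers were at 129 to 134 CPM in knockout and 119 to 137 CPM in control libraries, and oligodendrocyte lineage markers at 247 to 283 CPM in knockout and 268 to 272 CPM in control libraries. Of 8 neuron markers tested 1 rose and 1 fell, and of 8 oligodendrocyte lineage markers tested 2 rose, Cspg4 and Pdgfra, and 3 fell, Olig1, Olig2 and Sox10. The part of these shifts in the results below was not tested. In bulk RNA, fewer cells of a type and less RNA per cell cannot be told apart.

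Megf10 (ENSMUSG00000024593, GRCm38 chromosome 18, 57133090 to 57297467, plus strand) is the receptor that names the pathway. It was at 46.2, 47.9 and 47.0 CPM in knockout replicates 1, 2 and 3, against 61.1, 67.1 and 73.7 CPM in control replicates 1, 2 and 3. The knockout libraries lay close together, while the control libraries spread more widely, and 13.1 CPM separated the highest knockout from the lowest control library. The fold was 0.698 with a 95% interval of 0.635 to 0.768 (log2 fold change −0.52, SE 0.06, adjusted p = 5.1e-06, edgeR). Of all genes tested, 12.1% had a lower log2 fold change, so Megf10 was far from the strongest fall in these cultures. Without control replicate 3, the highest library, the log2 fold change was −0.45 and the gene was still called. Megf10 is also expressed by muscle satellite cells, and the 4 markers of those cells summed to at most 0.164 CPM in any knockout and 0.111 CPM in any control library.

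Megf11 (ENSMUSG00000036466, chromosome 9, 64385626 to 64709205, plus strand) is the closest relative of Megf10 and is known, with it, for the even spacing of retinal neurons. It had 714, 668 and 628 counts in the knockout libraries and 748, 745 and 1195 counts in the control libraries. Adjusted for depth, these were 7.48, 9.13 and 8.59 CPM in knockout and 12.03, 10.8 and 11.03 CPM in control replicates 1, 2 and 3. All knockout libraries were below all control libraries, by a margin of 1.67 CPM. The fold was 0.744 (95% interval 0.632 to 0.874, log2 fold change −0.43, SE 0.11, adjusted p = 0.0051, edgeR), and its interval spans that of Megf10. The difference between the falls of Megf10 and Megf11 was not tested.

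Pear1 (ENSMUSG00000028073, chromosome 3, 87747890 to 87824306, minus strand), also called Jedi-1, is a receptor of platelets and endothelium that has been described in glial engulfment of dying neurons. Its levels were 20.3, 17.9 and 22.4 CPM in knockout replicates 1, 2 and 3, against 15.0, 15.4 and 14.7 CPM in control replicates 1, 2 and 3. Here the control libraries were tight and the knockout libraries spread, with knockout replicate 2 the lowest of them but still above every control. Pear1 rose 1.34-fold (95% interval 1.18 to 1.53, log2 fold change 0.43, SE 0.09, adjusted p = 0.0011, edgeR), and by 0.50 on the log2 scale without knockout replicate 2. Its annotated exons share 321 bases, 4.73% of its exon length, with the gene Lrrc71 on the same strand. Lrrc71 did not exceed 0.301 CPM in any knockout or 0.289 CPM in any control library. Of 7 endothelial markers tested, 3 rose, beside 19.6% of all genes tested. Among them Cdh5, the endothelial cadherin, was at 53.4 ± 1.93 CPM in knockout and 26.8 ± 0.439 CPM in control cultures. The endothelial genes Tie1 and Cldn5 were under 1 CPM in every library.

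Pear1 therefore moved in the opposite direction to its paralogues Megf10 and Megf11, and the mix of these genes shifted. Per kilobase of annotated exon, Megf10 made up 62.1 ± 2.13% of the summed level of Megf10, Megf11 and Pear1 in knockout and 72.9 ± 2.28% in control cultures. The share of Pear1 was 30.3 ± 2.66% in knockout and 18.6 ± 1.40% in control cultures, with no overlap between the groups for either gene. Megf11 took 7.65 ± 0.760% in knockout and 8.49 ± 0.978% in control cultures, and there the groups overlapped. The shares depend on the length used. With the longest transcript as the length, knockout means for Megf10, Megf11 and Pear1 were 6.26, 1.26 and 3.69 CPM per kilobase. By exon length they were 6.09, 0.751 and 2.98.

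Lrp1 (ENSMUSG00000040249, chromosome 10, 127538161 to 127621148, minus strand) was by far the most abundant of the 7, and 0.329% of all genes tested had a higher CPM. It stood at 1327, 1218 and 1401 CPM in knockout replicates 1, 2 and 3, against 986, 935 and 1076 CPM in control replicates 1, 2 and 3. All knockout libraries exceeded all control libraries. The rise was 1.32-fold (95% interval 1.21 to 1.43, log2 fold change 0.40, SE 0.06, adjusted p = 3.1e-05, edgeR). Lrp1 is also a gene of fibroblasts and mural cells, whose markers moved differently. The fibroblast marker Col1a1, a collagen chain, was at 2976 ± 282 CPM in knockout and 1949.8 ± 80.7 CPM in control cultures. Of the mural markers, Acta2, smooth muscle actin, fell to 2685 ± 29.4 CPM in knockout cultures, against 3849.9 ± 106.4 CPM in control cultures, and Myh11, smooth muscle myosin, to 8.96 ± 0.678 CPM in knockout cultures, against 15.4 ± 0.365 CPM in control cultures. Pdgfrb, a pericyte receptor, rose and was at 115 ± 3.56 CPM in knockout and 80.3 ± 3.17 CPM in control cultures.

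Gulp1 (ENSMUSG00000056870, chromosome 1, 44551511 to 44796838, plus strand) encodes the adaptor whose phosphotyrosine-binding (PTB) domain docks on the tails of MEGF10 and LRP1. Its levels were 27.0, 29.3 and 26.8 CPM in knockout replicates 1, 2 and 3, against 25.3, 27.7 and 25.4 CPM in control replicates 1, 2 and 3. The groups overlapped. The log2 fold change was 0.09 with a 95% interval of −0.06 to 0.24 (adjusted p = 0.37, edgeR), so the data allow anything from a 4.26% decrease to a 17.8% increase. A fall as large as the estimate for either receptor, Megf10 or Megf11, lies outside that interval.

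**Figure D2:**
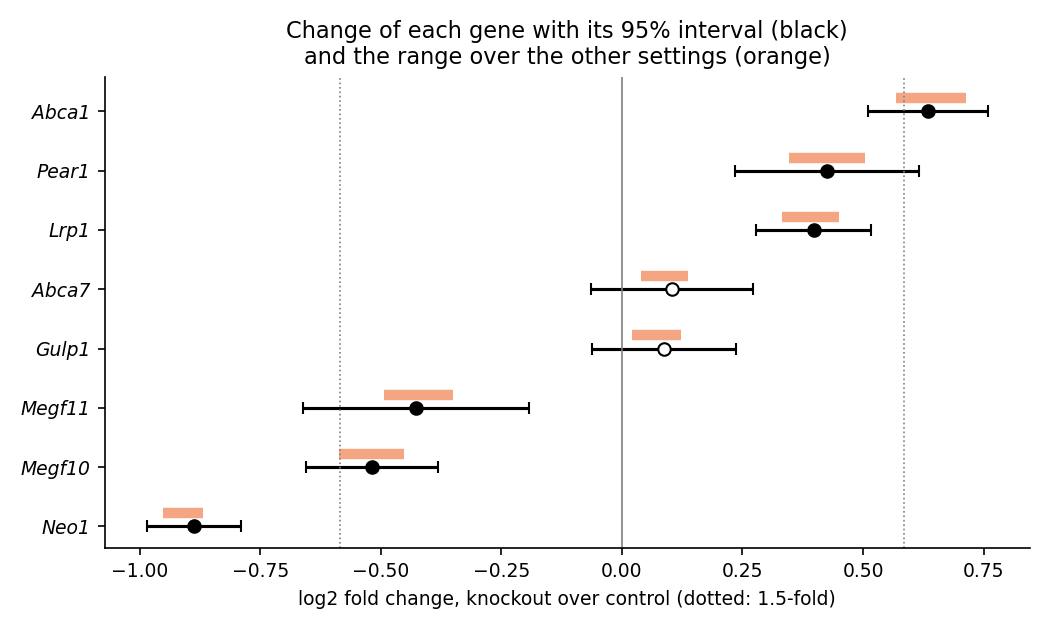
Log2 fold change of each gene (knockout over control) with its 95% interval in black, filled where called and open where not, and in orange the range of the estimate over the 17 other settings tried. Dotted lines mark a 1.5-fold change; Abca1 alone of the 7 has its estimate past one of them, at 0.63, and no interval of a pathway gene lies wholly beyond.

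Abca1 (ENSMUSG00000015243, chromosome 4, 53030787 to 53159895, minus strand) exports cholesterol and phospholipid to apolipoproteins and is a classic target of the sterol-sensing liver X receptors (LXR). It had the largest change of the 7. Its levels were 266, 281 and 279.8 CPM in knockout replicates 1, 2 and 3, against 171, 164 and 198 CPM in control replicates 1, 2 and 3. A margin of 68.4 CPM separated the groups. The rise was 1.55-fold (95% interval 1.42 to 1.69, log2 fold change 0.63, SE 0.06, adjusted p = 1.8e-07, edgeR), and 11.5% of all genes tested had a higher log2 fold change. Without control replicate 3 the log2 fold change was 0.71.

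Abca7 (ENSMUSG00000035722, chromosome 10, 79996494 to 80015572, plus strand), a phospholipid transporter known for phagocytosis by macrophages and as a risk gene for Alzheimer's disease, behaved differently from Abca1 by its call, though the difference between the changes of the 2 genes was not tested. It stood at 20.1, 18.3 and 19.3 CPM in knockout replicates 1, 2 and 3, against 17.7, 17.2 and 18.7 CPM in control replicates 1, 2 and 3. Knockout replicate 2 lay below the highest control library. The log2 fold change was 0.10 with a 95% interval of −0.06 to 0.27 (adjusted p = 0.34, edgeR), which allows at most a 20.7% increase. The intervals of Abca1 and Abca7 do not overlap. Of the 10 microglia and macrophage markers, 7 fell and 1 rose in the same libraries, beside 18.7% and 19.6% of all genes tested. Without control replicate 3, 4 of these markers fell. Any link of these markers to the level of Abca7 was not tested.

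The start regions of Abca1 and Abca7 are shown because these related transporters differ in their call and because Abca1 is the pathway gene with a well-known sterol response. RefSeq promoters (250 bases before to 50 after the start, GRCm38.p6) were read for 5 of the 7 genes only. Capitals mark CACGTG, an E-box that holds ACGTG, the core of the site bound by hypoxia-inducible factors, and a repeat of GGTTA or GGTCA followed after 5 bases by GGTCA, read on either strand, which is the form of site that LXR binds. Abca1 lies at chr4:53159846-53160145 on the minus strand and Abca7 at chr10:79996244-79996543 on the plus strand.
Abca1: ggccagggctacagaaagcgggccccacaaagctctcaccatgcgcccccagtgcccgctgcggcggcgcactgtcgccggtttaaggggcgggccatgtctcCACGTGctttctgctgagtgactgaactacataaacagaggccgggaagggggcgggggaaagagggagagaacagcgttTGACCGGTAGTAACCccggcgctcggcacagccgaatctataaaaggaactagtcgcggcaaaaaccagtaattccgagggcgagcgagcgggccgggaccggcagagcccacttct
Abca7: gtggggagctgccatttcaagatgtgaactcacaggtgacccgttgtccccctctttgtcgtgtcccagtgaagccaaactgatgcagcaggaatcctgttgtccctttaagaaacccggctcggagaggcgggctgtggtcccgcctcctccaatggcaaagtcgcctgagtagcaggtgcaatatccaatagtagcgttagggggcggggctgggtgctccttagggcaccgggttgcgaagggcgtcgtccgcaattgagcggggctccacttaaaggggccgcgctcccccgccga

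In the Abca1 sequence the E-box began 147 bases before the start, and the repeat, which reads in the LXR sense on the opposite strand, ran from 67 to 53 bases before it. Of 32851 mouse promoters of the same length, 19.6% hold ACGTG on either strand, 7.15% hold CACGTG, which always includes ACGTG, and 0.125% hold the repeat. The repeat was searched for with the known Abca1 site in view, so finding it there is no result. The Abca7, Lrp1, Pear1 and Gulp1 sequences held none of these letters. The start regions of Megf10 and Megf11 were not examined, so nothing is said of them. A match is a description of the sequence and not of binding.

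Ordered by level per exon length, Lrp1 led at 74.3 ± 5.19 CPM per kilobase in knockout and 56.4 ± 4.03 in control cultures. Abca1 came next at 26.6 ± 0.817 CPM per kilobase in knockout and 17.1 ± 1.71 in control cultures, and Megf11 was last at 0.751 ± 0.0754 in knockout and 1.01 ± 0.0581 in control cultures. Between them the order of Megf10 and Gulp1 turned with genotype. In knockout cultures Megf10, at 6.09 ± 0.114 CPM per kilobase, stood below Gulp1 at 7.38 ± 0.375, and in control cultures Megf10, at 8.72 ± 0.821, stood above Gulp1 at 6.95 ± 0.364. Abca7 was at 2.85 ± 0.127 CPM per kilobase in knockout and 2.65 ± 0.110 in control cultures, and Pear1 at 2.98 ± 0.327 in knockout and 2.22 ± 0.050 in control cultures. These last 2 overlapped in the knockout libraries, and by exon length all other neighbours in either order were apart. With the longest transcript as the length, Pear1 passed Abca7 in control cultures too. Megf10 and Gulp1 then kept their order in control cultures, at means of 8.96 and 8.32 CPM per kilobase, but their control libraries overlapped.

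**Figure D3:**
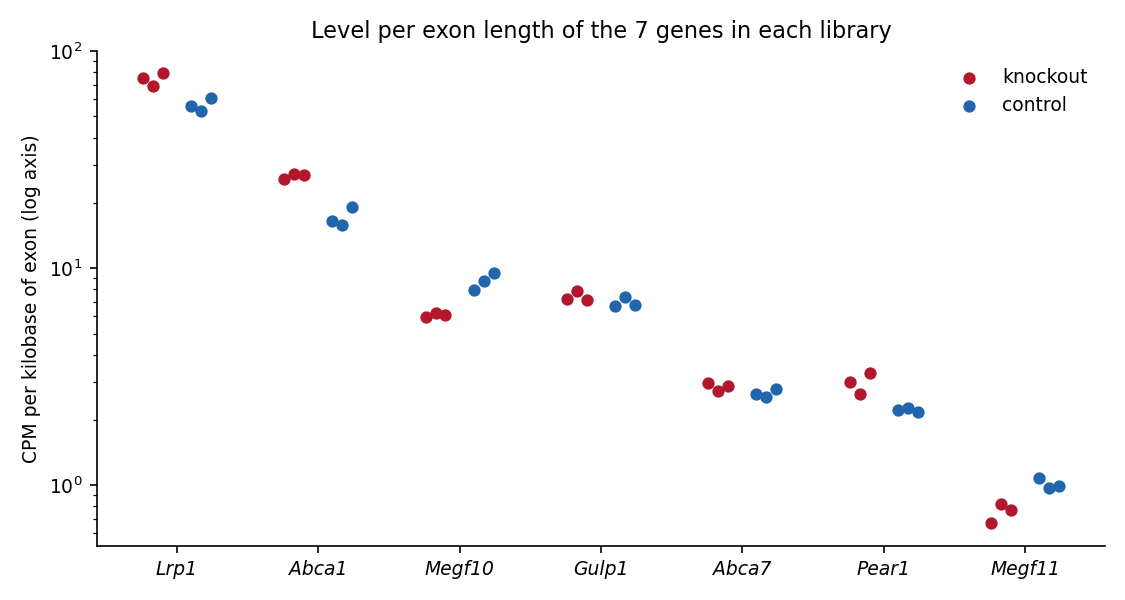
CPM per kilobase of annotated exon (log axis) of the 7 genes in each knockout (red) and control (blue) library, ordered by the control mean. Lrp1 and Abca1 are the 2 highest and Megf11 the lowest in both groups, and Megf10 lies below Gulp1 in knockout and above it in control libraries.

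Genes whose level over the 6 libraries was among the most like that of Megf10, out of 9841 genes with a mean of at least 10 CPM, were Bach1, a haem-regulated transcriptional repressor, Slc25a13, a mitochondrial aspartate-glutamate carrier, Btbd9 and the phosphatase gene Dusp3. Pearson's r of log2 CPM lay between 0.991 and 0.995 for these 4. The points share their genotype groups, so r reflects the difference between groups as well as the spread within them. All 4 fell, by less than Megf10. Bach1 was at 83.5 ± 0.369 CPM in knockout and 105.9 ± 7.81 CPM in control cultures, and Dusp3 at 97.2 ± 1.21 CPM in knockout and 120.2 ± 4.85 CPM in control cultures. Their rank correlations with Megf10 lay between 0.829 and 0.943, while 66 genes had a rank correlation of 1.

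Around the 7 genes, 10 further lists of engulfment genes were described. They are read by counts and medians beside all genes tested, of which 19.6% rose and 18.7% fell with a median log2 fold change of −0.00, and no list was tested as a whole. The lists were chosen with earlier results of these data known.

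Among signals that mark or bridge to a dying cell, 6 of 13 rose and 4 fell (median −0.00). The complement genes C1qa, C1qb and C1qc, whose product C1q is a ligand of MEGF10, all fell. C1qa was at 1.57, 1.16 and 2.44 CPM in knockout replicates 1, 2 and 3, against 6.95, 8.32 and 7.31 CPM in control replicates 1, 2 and 3 (log2 fold change −2.13, adjusted p = 4.2e-07, edgeR). C1qb and C1qc changed by −1.98 and −1.41 on the log2 scale. C1q genes are typical of microglia. Of the 10 microglia and macrophage markers 7 fell and 1 rose, beside 18.7% and 19.6% of all genes tested. Aif1, a defining microglial marker, fell to 0.171 ± 0.110 CPM in knockout cultures, against 1.09 ± 0.0899 CPM in control cultures. Tmem119, another microglial marker, rose to 6.76 ± 0.288 CPM in knockout cultures, against 4.66 ± 0.458 CPM in control cultures. Cd68 and P2ry12 did not pass the test. The part of microglia in the C1q falls was not tested. Of the signal genes that rose, Anxa1 encodes an annexin found on dying cells, at 522 ± 27.3 CPM in knockout and 329 ± 8.67 CPM in control cultures. Cd47, which signals against engulfment, was at 251 ± 5.77 CPM in knockout and 163 ± 0.675 CPM in control cultures. Xkr4, a scramblase-family gene, was at 4.05 ± 1.08 CPM in knockout and 2.31 ± 0.600 CPM in control cultures. The Xkr4 groups overlapped, with knockout replicate 2 at 2.84 CPM and control replicate 3 at 2.95 CPM. Calr, calreticulin, which marks cells for uptake through LRP1 and was the highest of the list, rose by 0.17 on the log2 scale.

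LRP1 ligands and partners moved in both directions, with 9 of 16 higher and 5 lower (median 0.15), or 3 lower without knockout replicate 3. The matrix protease gene Mmp9 rose most, at 31.9 ± 2.21 CPM in knockout and 5.74 ± 0.791 CPM in control cultures. The coagulation inhibitor gene Tfpi was at 52.2 ± 2.26 CPM in knockout and 24.6 ± 0.474 CPM in control cultures, and Thbs2, a thrombospondin, at 553 ± 18.8 CPM in knockout and 287 ± 7.47 CPM in control cultures. Both rose. Thbs1, the highest of the list, rose by 0.14 on the log2 scale. Those that fell included the lipoprotein lipase gene Lpl, at 57.2 ± 3.32 CPM in knockout and 95.4 ± 1.41 CPM in control cultures, and Snx17, a sorting protein that recycles LRP1, at 113 ± 0.800 CPM in knockout and 132 ± 8.18 CPM in control cultures. Apoe, the apolipoprotein that ABCA1 loads with lipid and LRP1 takes up, fell as well. It was at 685, 569.9 and 702 CPM in knockout replicates 1, 2 and 3, against 964, 965 and 889 CPM in control replicates 1, 2 and 3 (log2 fold change −0.53, adjusted p = 3.8e-05, edgeR). Apoe thus went the opposite way to Abca1 and Lrp1, with no overlap between the groups for any of them.

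In the list of LXR and cholesterol efflux genes, 2 of 14 rose and 8 fell (median −0.21), or 5 fell at a threshold of 0.01. Abca1, which is not counted in this list, rose together with Abcg1, its partner in efflux, at 3.19 ± 0.314 CPM in knockout and 1.63 ± 0.141 CPM in control cultures. Mylip, a ligase that degrades LDL receptors, also rose, at 7.06 ± 0.144 CPM in knockout and 5.19 ± 0.367 CPM in control cultures. Nr1h3, which encodes LXRα, fell to 3.60 ± 1.10 CPM in knockout cultures, against 6.12 ± 0.572 CPM in control cultures, and the efflux transporter gene Abcg4 fell to 7.04 ± 0.374 CPM in knockout cultures, against 9.99 ± 0.918 CPM in control cultures.

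Relatives of the members varied in direction. Of 10 other ABCA transporters tested, Abca5 rose, at 37.2 ± 1.35 CPM in knockout and 31.3 ± 2.62 CPM in control cultures, a call lost without control replicate 2. Abca8a, Abca8b and Abca9 fell. Abca8a was at 0.342 ± 0.0837 CPM in knockout and 1.71 ± 0.211 CPM in control cultures, Abca8b at 9.72 ± 0.964 CPM in knockout and 13.7 ± 0.886 CPM in control cultures, and Abca2, the highest of these 10, did not pass the test (log2 fold change 0.12). In the LDL receptor family 3 of 13 rose and 6 fell (median −0.15). Vldlr, a receptor for reelin and apolipoprotein E, rose to 67.1 ± 3.95 CPM in knockout cultures, against 45.1 ± 1.41 CPM in control cultures. Lrp6 and Lrp11 rose by 0.23 and 0.26 on the log2 scale. Sorl1, a sorting receptor for the amyloid precursor, was the highest of these 13 by the mean over all libraries, though not in knockout cultures alone, and fell to 129 ± 2.34 CPM in knockout cultures, against 221 ± 17.1 CPM in control cultures, while Lrp8 and Lrp4 changed by −0.60 and −0.55 on the log2 scale, both called. Of 7 other receptors with EGF-like repeats, 3 fell and 2 rose. Stab1, a scavenger receptor of macrophages and endothelium, fell to 7.14 ± 0.501 CPM in knockout cultures, against 16.8 ± 1.36 CPM in control cultures. Megf6 fell to 48.5 ± 2.75 CPM in knockout cultures, against 68.5 ± 2.31 CPM in control cultures. Scarf2 rose to 35.5 ± 6.31 CPM in knockout cultures, against 26.8 ± 0.546 CPM in control cultures. Scarf1, another receptor related to CED-1, was at 1.77 ± 0.0950 CPM in knockout and 1.04 ± 0.270 CPM in control cultures (adjusted p = 0.033, edgeR), and 1 of these 2 rises was lost without each of 5 libraries, control replicate 1 being the exception.

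Among 12 PTB-domain adaptors other than Gulp1, 3 rose and 3 fell (median −0.04), or 5 fell with total-count scaling. Apbb2, which binds the tail of the amyloid precursor, was at 88.3 ± 2.15 CPM in knockout and 51.7 ± 3.19 CPM in control cultures. Numbl, a regulator of Notch, was at 61.9 ± 3.62 CPM in knockout and 97.9 ± 3.59 CPM in control cultures, and Dab1, the reelin adaptor, at 23.6 ± 2.05 CPM in knockout and 32.1 ± 2.96 CPM in control cultures. Shc2 and Appl1 also rose and Apbb1 also fell, and Shc1, the highest by the mean over all libraries though below Numbl in control cultures, did not pass the test.

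Downstream of the receptors, genes of the engulfment cytoskeleton and genes of phagosome maturation differed in the direction of their calls, a difference not tested. Of 13 cytoskeletal signalling genes 5 fell (38.5%, beside 18.7% of all genes tested) and 0 rose in the main edgeR fit (median −0.11). By DESeq2, 1 rose, as by edgeR with the filter of 1 CPM in 3 libraries or without control replicate 3. The number that fell was 9 with total-count scaling, and 3 without knockout replicate 1 or at a threshold of 0.01. Syk, the kinase whose fly counterpart acts below Draper, was at 27.5 ± 0.341 CPM in knockout and 38.9 ± 1.86 CPM in control cultures. Elmo2, part of the exchange factor that activates Rac, was at 82.0 ± 1.5 CPM in knockout and 104 ± 2.25 CPM in control cultures, and Elmo1 at 5.61 ± 0.339 CPM in knockout and 7.27 ± 0.638 CPM in control cultures. Cdc42, the highest, had a log2 fold change of 0.01, and Dock1, the partner of ELMO proteins, one of −0.01, and neither passed the test. Dock1 is named after its value was seen. Of 21 phagosome maturation genes 6 rose (28.6%, beside 19.6% of all genes tested) and 0 fell by edgeR (median 0.08). With total-count scaling 4 rose and 1 fell. The number that rose was also 4 at a threshold of 0.01, and 9 with the filter of 1 CPM in 3 libraries. Lamp2, a lysosomal membrane protein, was at 536 ± 26.8 CPM in knockout and 397 ± 9.86 CPM in control cultures. Mtm1, a phosphoinositide phosphatase, was at 28.2 ± 2.54 CPM in knockout and 22.4 ± 1.04 CPM in control cultures, and Ccz1, part of the activator of Rab7, at 63.2 ± 3.27 CPM in knockout and 52.4 ± 0.760 CPM in control cultures. Lamp1, the highest, did not pass the test.

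**Figure D4:**
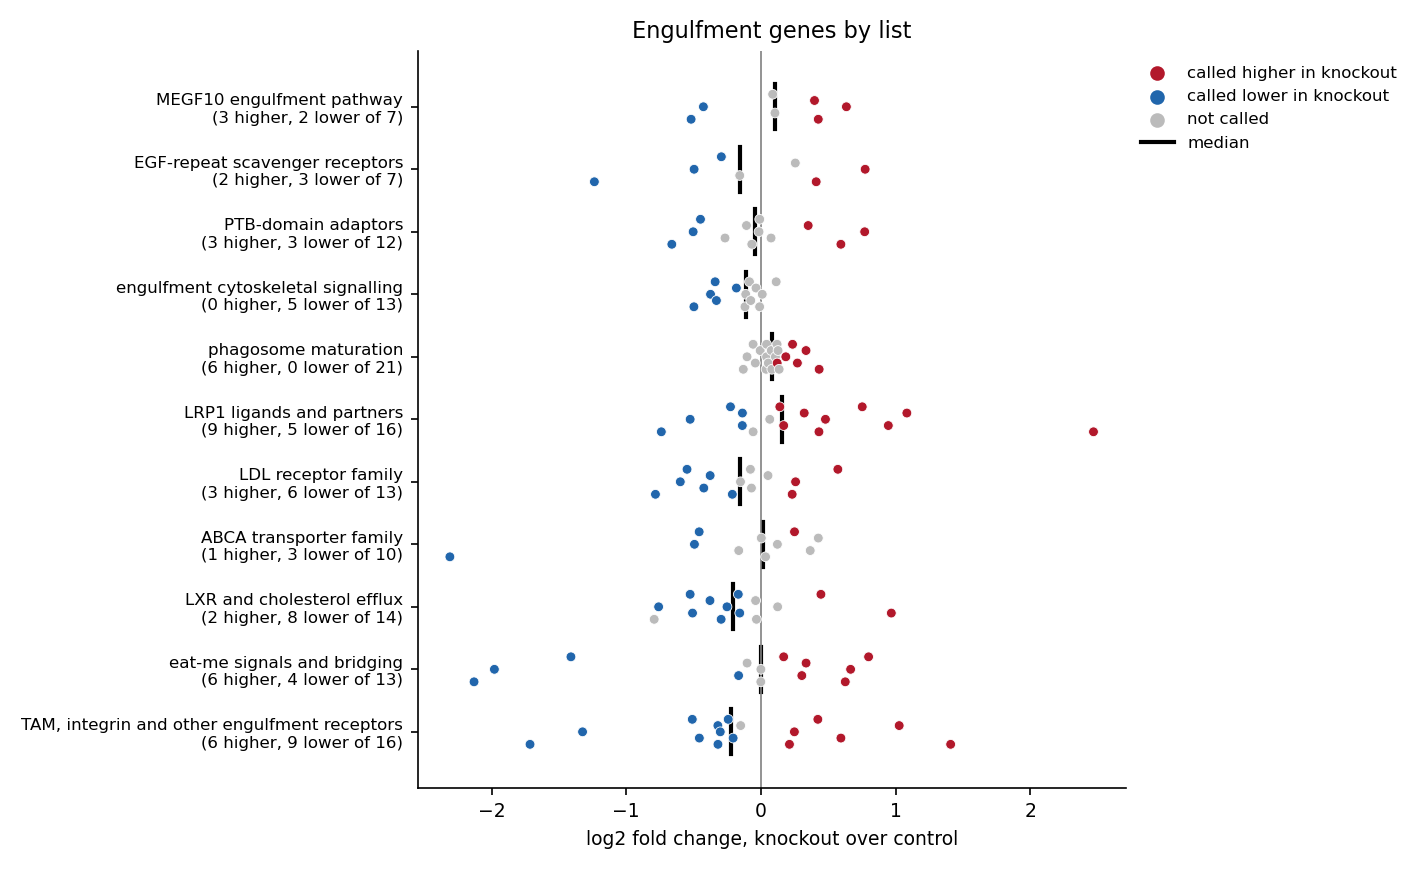
Log2 fold change (knockout over control) of each tested gene in the MEGF10 pathway and 10 further engulfment lists, coloured by call (red higher, blue lower, grey not called), with black bars at list medians and the counts beside each name. Most lists hold genes called in both directions; the cytoskeletal list has 0 called higher and the phagosome list 0 called lower.

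The other receptors and bridging ligands of engulfment split likewise, with 6 of 16 higher and 9 lower (median −0.22). Adgrb1, also called BAI1, a phosphatidylserine receptor that signals through ELMO1 and DOCK1, fell. It was at 13.8 ± 2.16 CPM in knockout and 34.6 ± 1.98 CPM in control cultures. Trem2, a receptor of microglia and macrophages, fell to 1.13 ± 0.470 CPM in knockout cultures, against 3.71 ± 0.380 CPM in control cultures, and the scavenger receptor gene Msr1 to 8.90 ± 1.13 CPM in knockout cultures, against 12.7 ± 0.299 CPM in control cultures. Those that rose included the scavenger receptor genes Olr1 and Cd36 and the integrin subunit gene Itgb3, with log2 fold changes of 1.41, 0.59 and 1.03. Itgav, the integrin partner of Itgb3 and the highest of the list, rose by 0.25 on the log2 scale. Megf10 is often studied beside the receptor gene Mertk. Mertk was at 11.2 ± 1.06 CPM in knockout and 12.4 ± 1.30 CPM in control cultures and did not pass the test. The related receptor gene Axl rose to 726 ± 7.56 CPM in knockout cultures, against 542 ± 2.79 CPM in control cultures. Tyro3, also related, fell to 22.1 ± 1.34 CPM in knockout cultures, against 27.6 ± 2.27 CPM in control cultures. Mertk, Axl and Tyro3 are named after their values were seen.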

How the data were processed

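RNA was extracted with Trizol and poly(A) RNA was selected with poly-T beads, per the labels' protocols. The authors' deposited table holds raw counts per gene, made with HISAT2 2.2.1 and featureCounts 2.0.6 on GRCm38, per the submitters' processing notes. The annotation release, strand setting and rule for reads with several positions are not given in any source used, so reads of overlapping or near-identical genes could be shared. A BLAST 2.17.0 search of each longest transcript (at least 95% identity over at least 100 bases) found such a stretch only for Pear1, with Lrrc71.

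Counts of the 3 knockout and 3 control libraries were analysed in R 4.3.3 with the quasi-likelihood test of edgeR 4.0.16: filterByExpr (minimum count 10, minimum total 15), which kept 18530 genes, TMM normalisation, a robust quasi-likelihood fit on genotype, and Benjamini-Hochberg adjustment at 0.05. The test was also run on simulated counts in which few genes changed, in equal numbers up and down. Far more genes were called in the real libraries, so that run cannot check the scaling used here. Intervals come from the standard error and the fit's degrees of freedom and cover the spread between libraries. No 2 libraries of a group were alike within sampling noise, with a chi-square per gene of 5.98 to 21.7. Exon lengths and positions came from GENCODE M21, which held 54495 of the 54532 identifiers. The genes and lists were chosen with earlier results of these data known. Named genes are the 7 genes, Neo1, up to 3 of the largest rises and falls and the highest gene of each list by its mean over the 6 libraries (at least 1 CPM in a group for rises and falls), and the 5 genes most like Megf10; others, single marker genes included, were chosen after their values were seen. Some genes that this rule names are not reported here.

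Alternatives were median-of-ratios, upper-quartile and total-count scaling, DESeq2 1.42.0, limma-voom (limma 3.58.1), the low-count filter removed or set at 1 CPM in 3 libraries, the robust option off, leaving out each library in turn, a replicate block, a threshold of 0.01 and a test against a fold of 1.5.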

Additional observations from a re-analysis of the deposited data

How the results depend on the processing

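The 5 calls among the 7 genes held under 16 of 17 alternatives, Gulp1 and Abca7 were called under none of the 17, and the log2 fold changes of the 7 genes kept their direction under all 17. Against a minimum fold of 1.5 none of the 5 was called: the log2 fold changes, unchanged by that test, were −0.52 for Megf10, −0.43 for Megf11, 0.43 for Pear1, 0.63 for Abca1 and 0.40 for Lrp1, with adjusted p-values of 1.0 except 0.66 for Abca1. Under that test 666 genes were higher and 348 lower. Over all settings the log2 fold change ran from −0.59 to −0.45 for Megf10, from −0.49 to −0.35 for Megf11, from 0.35 to 0.50 for Pear1, from 0.57 to 0.71 for Abca1 and from 0.33 to 0.45 for Lrp1. With the replicate block it was −0.51 for Megf10, and 3501 genes were higher and 3383 lower. Same-numbered libraries did not deviate together (correlations from −0.008 to 0.019). Whether same-numbered cultures shared a litter is not stated, and with 3 libraries per group these correlations cannot decide it. Of 646 list counts, 58 moved by over 1.5 times, 30 of them under the minimum fold. With 3 libraries per group, the interval of a gene at the level of Megf11 spans a fold of 0.632 to 0.874, which shows the precision available at that depth.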
